A study of Homo sapiens with 6 samples.

Results

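Of the 18318 genes counted in A375 melanoma cells, 374 were antisense RNAs with enough reads to be followed here. They were all genes whose symbol ends in -AS1, -AS2 or -AS3 and whose raw counts over the 6 libraries summed to at least 60, out of 757 genes with such a symbol. HIF1A-AS2 was left out by rule. By suffix, 351 ended in -AS1, 18 in -AS2 and 5 in -AS3. They were thus selected on their summed counts, a measure of level, and not on the difference between the groups. Each was set beside its sense partner, the gene named before the hyphen, and 353 of them had a partner row in the count table.

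Natural antisense RNAs are transcribed from the strand opposite to another gene, often from the same promoter region or across its exons. Most are long non-coding RNAs that are capped and spliced, made at low levels, and cleared from the nucleus by the RNA exosome when they are short-lived. Some are known to pair with the sense RNA, to change its splicing or decay, or to act on chromatin at the shared locus, while for many no role is known.

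A375 is an established human melanoma line. The cells were transfected with Lipofectamine and a pcDNA3.1 plasmid with a CAG promoter and a puromycin resistance gene. The plasmid either carried SLNCR (3 libraries) or was empty as the vector backbone control (3 libraries). Both groups were thus given a plasmid and spent 48 h in puromycin at 2 µg/mL. SLNCR is a long non-coding RNA that the count table lists as LINC00673, and the comparison asks which antisense RNAs differed in level after it was supplied from the plasmid. RNA was depleted of ribosomal RNA and read from both ends at 150 bases. Since the labels do not say how the replicate cultures were kept apart, p-values measure the spread between these samples, which may in part be technical.

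LINC00673 was counted 195, 194 and 193 times in the empty vector libraries and 1786, 2569 and 2040 times in the SLNCR libraries, so the libraries matched their labels. Library totals were 9287450 to 10822083 counts, and the number of the 374 antisense RNAs with at least 10 counts was 339 in SLNCR replicate 3 and 361 in each of the other 5 libraries. The labels call the cells epithelial. Of the epithelial markers, KRT8 and KRT18 were abundant and both fell after SLNCR (log2 fold change -0.31 and -0.29, edgeR adjusted p = 0.0143 and 0.0137), while EPCAM and CDH1 stayed under 1 CPM in both groups, and the 7 markers summed to 539 to 601 CPM with the empty vector and 428 to 483 CPM with SLNCR. Of the melanocyte lineage markers, MITF, MCAM, CSPG4, PRAME and SOX10 were present and PMEL, TYRP1 and DCT were under 1 CPM, with a sum over the list of 669 to 696 CPM against 637 to 655 CPM. The part of these shifts in the results was not tested. In such bulk samples, fewer cells that make an RNA and less of it per cell cannot be told apart.

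The antisense RNAs were a low-abundance class. Their median level over the 6 libraries was 4.93 CPM (counts scaled to library size, with TMM factors between libraries), against 31.8 CPM for all tested genes. Per kilobase of exon the medians were 2.48 and 6.49 CPM. There were 191 antisense RNAs under 5 CPM, 105 above 10 CPM and 4 above 100 CPM. Their summed level was 5409 to 5752 CPM in the empty vector libraries and 4663 to 5174 CPM in the SLNCR libraries, and the groups did not overlap. Without VIM-AS1, the most abundant of them, the sums were 4239.9 to 4365 CPM and 3929.6 to 4117 CPM.

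VIM-AS1 (chr10:17214239-17229985, minus strand) lies opposite the gene of vimentin, the intermediate filament protein of mesenchymal cells. It stood at 1387, 1198 and 1169 CPM with the empty vector and at 914, 1057 and 734 CPM with SLNCR. Every SLNCR library was below every empty vector library, but the log2 fold change of -0.47 (SE 0.143) did not pass the threshold (edgeR adjusted p = 0.0732). VIM itself went from 3474 ± 146 to 3093 ± 207 CPM (SD, n = 3) and passed the test with a log2 fold change of -0.17 (adjusted p = 0.0328, edgeR). MIF-AS1 was the next in level and is described with its partner further on.

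FGD5-AS1 had 155 ± 4.47 CPM with the empty vector and 168 ± 7.47 CPM with SLNCR (SD, n = 3), with a log2 fold change of 0.12 that missed the threshold (edgeR adjusted p = 0.133). Its named partner FGD5, a guanine nucleotide exchange factor of endothelial cells, had a count of 0 in 4 of the 6 libraries, so this antisense RNA was made with almost no RNA of the gene it is named after. Of the 13 pairs whose sense partner averaged under 1 CPM, 5 had an antisense RNA above 10 CPM, and these 5 are named here after their values were seen. They were FGD5-AS1, TSPOAP1-AS1 at 54.2 CPM, NUTM2B-AS1 at 27.9 CPM, NUTM2A-AS1 at 23.4 CPM and TMEM132D-AS1 at 13.2 CPM. NUTM2A-AS1 and NUTM2B-AS1 are near-identical copies, so the split of reads between them is uncertain. None of the 5 passed the test.

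Also among the 10 most abundant were PLCG1-AS1, PXN-AS1, CCDC144NL-AS1, PRC1-AS1 and SLC25A5-AS1. PLCG1, PXN and PRC1 encode a phospholipase, the focal adhesion adaptor paxillin and a cytokinesis factor. PLCG1-AS1 stood at 62.7 CPM per kb against 11.5 for PLCG1, and PRC1-AS1 at 46.5 against 33.2 for PRC1. Their libraries were read without known strand separation, which is taken up with the overlap of the pairs. Of these 5, SLC25A5-AS1 was the one that passed the test, and the log2 fold changes of the others lay between -0.15 (PXN-AS1, adjusted p = 0.0893, edgeR) and 0.14 (PRC1-AS1, adjusted p = 0.158, edgeR).

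**Figure D1:**
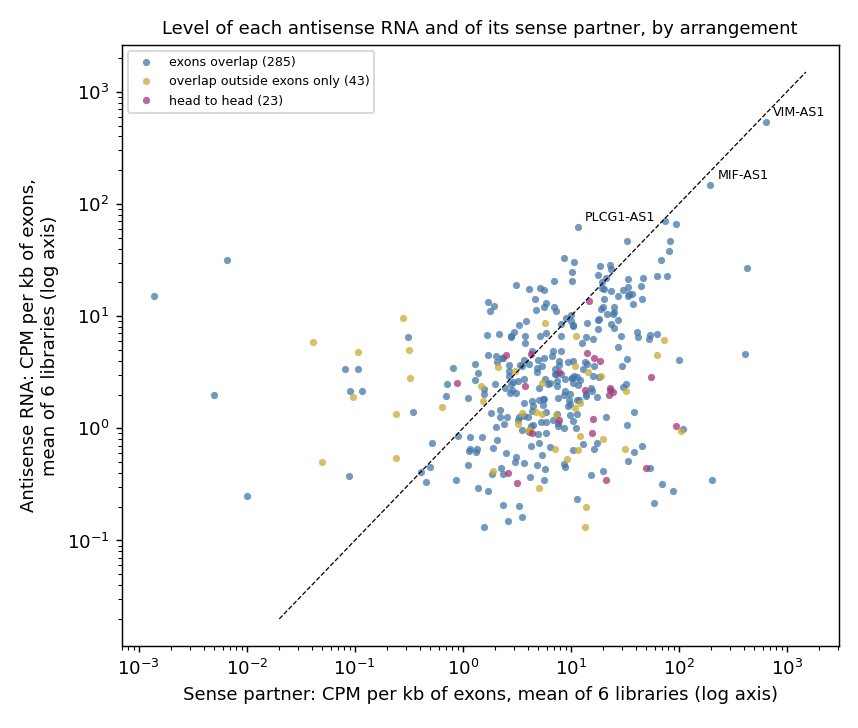
Level of 351 antisense RNAs (vertical axis) and their sense partners (horizontal axis) in CPM per kilobase of exon, mean of 6 libraries, both axes logarithmic, coloured by how the genes lie to each other; the dashed line marks equal levels. Most points lie below the line, VIM-AS1 and MIF-AS1 are at the top right close to it, and PLCG1-AS1 lies above it.

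Across the 353 pairs with both rows, the antisense RNA was above its partner per kilobase in 95. The median level was 2.51 CPM per kb for the antisense RNAs and 7.17 for the partners, and the median of the ratio of sense to antisense was 2.40. The levels of both sides had a Spearman rho of 0.30 over these pairs, which share their libraries and, for most pairs, overlapping exons. That value is a description of the pairs and not a test.

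After SLNCR, 2 antisense RNAs were higher and 19 lower, of 369 tested. The other 5 of the 374 (NAGPA-AS1, SYNE1-AS1, MID1IP1-AS1, LCMT1-AS2 and UGDH-AS1) had too few counts to pass the filter. The 2 that rose were CERS6-AS1 and OTUD6B-AS1. The falls reached -0.79 on the log2 scale for OXCT1-AS1, -0.70 for TSC22D1-AS1 and -0.69 for LIX1L-AS1, and the smallest fall that passed was -0.33 for MIF-AS1. Differences were tested with edgeR's quasi-likelihood test at a Benjamini-Hochberg adjusted p of 0.05 over all 12797 genes tested. Over all of these genes 16.5% passed, 8.84% higher and 7.67% lower. Among the antisense RNAs 5.69% passed, 0.542% higher and 5.15% lower, so their share was below the background in both directions, in a set of low counts. Beside genes of like level, the share that fell was not below the background in each class, as given further on. At an unadjusted p of 0.05 the shares were 19.8% of the antisense RNAs (73) and 34.8% of all genes.

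The median log2 fold change of the 369 tested antisense RNAs was -0.12, with quartiles of -0.30 and 0.11, against -0.01 for all tested genes. Below 0 were 237 of them (64.2%), against 51.2% of all genes. The 3 SLNCR libraries lay wholly below the empty vector libraries for 66 antisense RNAs (17.9%) and wholly above for 30 (8.13%), where the figures for all genes were 19.1% and 19.7%. All 21 that passed the test were among those without overlap, as the plot of levels by library shows. The lower median was not shared by every kind of antisense RNA, and those without shared exons had a median near 0, as given with the arrangement of the pairs.

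**Figure D2:**
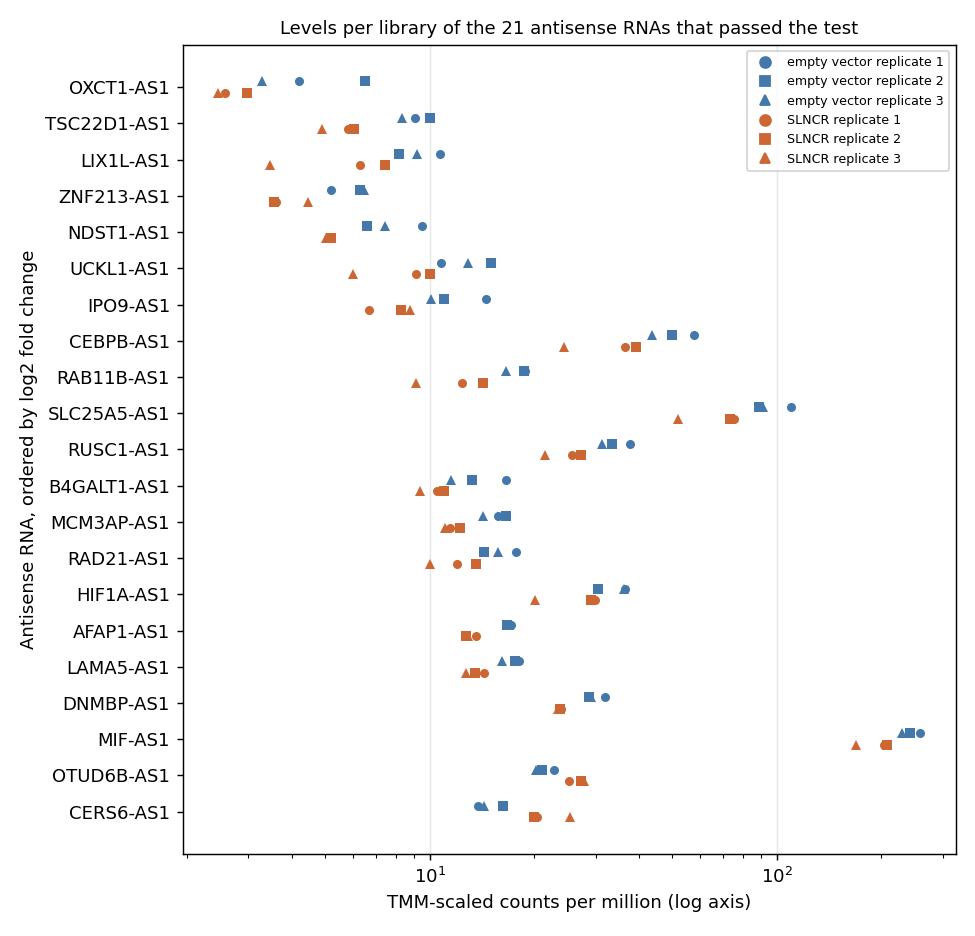
TMM-scaled CPM (logarithmic axis) of the 21 antisense RNAs that passed the edgeR test, ordered by log2 fold change, with 1 point per library (blue, empty vector; orange, SLNCR; marker shape gives the replicate number). In all 21 rows the blue and orange points do not overlap, and in 16 of the 19 rows that fell the lowest point is SLNCR replicate 3.

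SLNCR replicate 3 was the shallowest library, and it was the lowest of the SLNCR group for 16 of the 19 antisense RNAs that fell. Empty vector replicate 1 was the highest of its group for 14 of the 19. The median deviation from each antisense RNA's own mean was -0.11 on the log2 scale in SLNCR replicate 3, against -0.02 and -0.00 in SLNCR replicates 1 and 2. When SLNCR replicate 3 was left out, 1 rose and 12 fell, and 13 of the 21 still passed. When replicate 1 of either group or replicate 2 of the empty vector was left out, 0 passed, and at most 2 of all genes tested did. The sign of all 21 was kept whichever library was left out, which the lack of overlap between their groups largely fixes.

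CERS6-AS1 and CERS6, which encodes a ceramide synthase, rose together. CERS6-AS1 (chr2:168771953-168786961, minus strand) was measured at 13.8, 16.2 and 14.3 CPM with the empty vector and at 20.3, 19.9 and 25.3 CPM with SLNCR. The log2 fold change was 0.56 (SE 0.117, adjusted p = 0.0137 by edgeR). CERS6 had 36.7, 36.1 and 36.7 CPM against 41.5, 40.7 and 54.1 CPM, a log2 fold change of 0.31 (adjusted p = 0.0417, edgeR). The antisense RNA moved further than its partner, with ratios that did not overlap between groups. Ratios are given as descriptions, since the pairs shown were chosen by the change of the antisense RNA. Of the exon bases of CERS6-AS1, 69.7% are covered by exons of CERS6.

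OTUD6B-AS1 and OTUD6B, a deubiquitinase gene, start 7 bases apart and run in opposite directions with no exon in common. The antisense RNA (chr8:91059909-91070189, minus strand) had 22.8, 21.04 and 20.2 CPM with the empty vector and 25.1, 27.3 and 27.7 CPM with SLNCR, a log2 fold change of 0.32 (SE 0.0933, adjusted p = 0.0312 by edgeR). OTUD6B rose from 64.3 ± 4.63 to 83.2 ± 5.38 CPM (SD, n = 3; log2 fold change 0.37, edgeR adjusted p = 0.0137). Their ratio overlapped between the groups, so this divergent pair moved by a like amount on both sides. Among the 26 pairs called head to head here, whose starts lie within 1000 bases and whose genes do not overlap, it was the one in which the antisense RNA passed. Several pairs with overlapping exons also have close starts, among them RUSC1 and SLC25A5 described further on.

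Among the antisense RNAs that fell, MIF-AS1, UCKL1-AS1 and LAMA5-AS1 did so with their partner. MIF encodes macrophage migration inhibitory factor, a secreted cytokine. MIF-AS1 (chr22:23894426-23898930, minus strand) stood at 259, 241 and 229.7 CPM with the empty vector and at 204, 207 and 169 CPM with SLNCR, and MIF at 258, 242 and 225 CPM against 191, 216 and 162 CPM. The antisense RNA and its partner had nearly equal levels in every library, and their log2 fold changes were -0.33 (SE 0.0708, adjusted p = 0.0139 by edgeR) and -0.35 (adjusted p = 0.0207, edgeR). Exons of MIF cover 46.5% of the exon bases of MIF-AS1. UCKL1-AS1, opposite a uridine-cytidine kinase-like gene, went from 12.9 ± 2.10 to 8.38 ± 2.10 CPM (SD, n = 3) with a log2 fold change of -0.60 (edgeR adjusted p = 0.0276), beside -0.36 for UCKL1 (adjusted p = 0.0279, edgeR). LAMA5-AS1, opposite the gene of a laminin chain of basement membranes, had a log2 fold change of -0.35 (edgeR adjusted p = 0.0378) beside -0.22 for LAMA5 (adjusted p = 0.0159, edgeR). It is named after its values were seen, to complete the 19.

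HIF1A-AS1 and RAD21-AS1 fell while their partners rose. HIF1A encodes the oxygen-regulated subunit of hypoxia-inducible factor, and RAD21 a cohesin subunit that holds sister chromatids together. HIF1A-AS1 (chr14:61681041-61695823, minus strand) had 36.5, 30.5 and 36.2 CPM with the empty vector and 29.8, 29.02 and 20.03 CPM with SLNCR. HIF1A had 365, 385 and 412 CPM against 450.0, 425 and 499 CPM. The groups did not overlap on either side. The log2 fold changes were -0.38 (SE 0.125, adjusted p = 0.0498 by edgeR) for the antisense RNA and 0.24 (adjusted p = 0.0181, edgeR) for HIF1A. The fall of HIF1A-AS1 lay at the threshold and was -0.23 without SLNCR replicate 3, where it no longer passed.

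RAD21-AS1 (chr8:116874424-116876868, plus strand) was measured at 17.7, 14.3 and 15.8 CPM with the empty vector and 11.98, 13.6 and 10.0 CPM with SLNCR. RAD21 was measured at 348, 359 and 370.5 CPM against 405, 387 and 440.3 CPM. All 3 SLNCR libraries were lower for the antisense RNA and higher for RAD21. The log2 fold changes were -0.42 (SE 0.130, adjusted p = 0.0368 by edgeR) and 0.19 (adjusted p = 0.0255, edgeR). The log2 ratio of antisense to sense was lower by 0.64 for the HIF1A pair and by 0.62 for the RAD21 pair, a difference that the choice of pairs with opposite changes fixes. With the GC correction described further on, 0 antisense RNAs and 0 partner genes passed, so neither side of either pair did.

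The remaining 14 antisense RNAs that fell had a partner that did not pass the test. The log2 fold changes of those partners lay between -0.39 and 0.15, with 6 of the 14 above 0. The antisense to sense ratio was lower in every SLNCR library in all 14 pairs, which largely restates how they were picked and is no further evidence. A partner that misses the threshold is not shown to be unchanged. The falls are given below by the role of the sense gene, an order made for the description only.

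**Figure D3:**
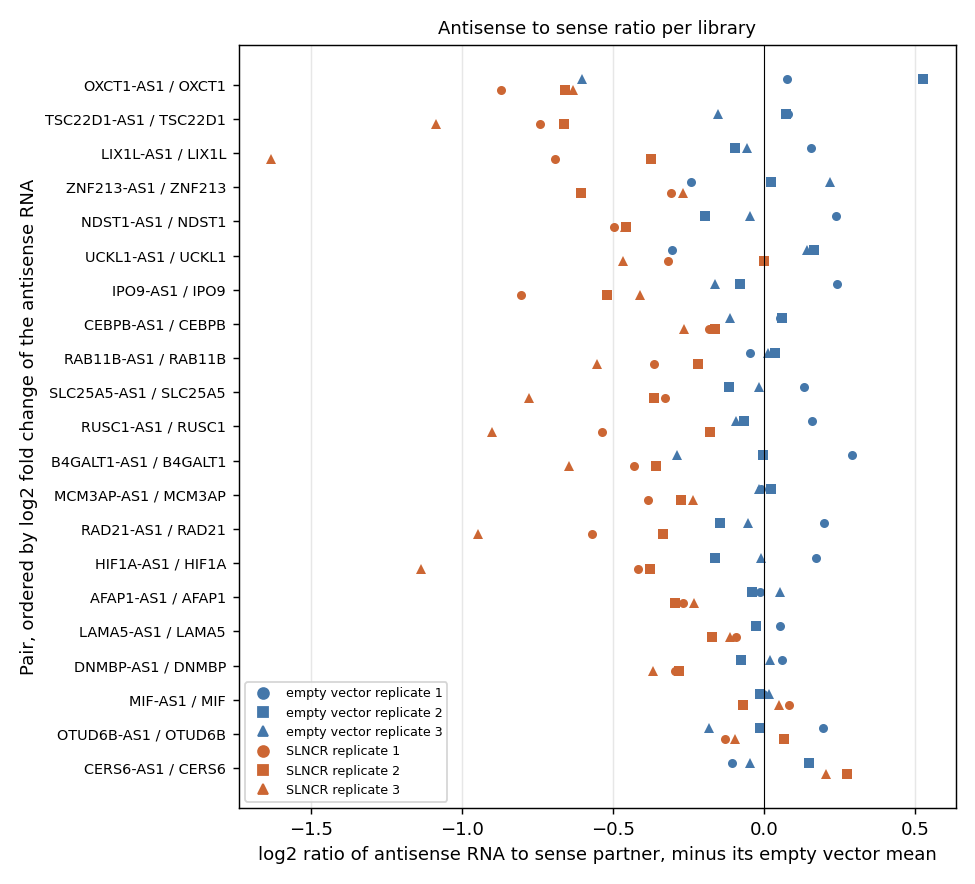
Log2 ratio of antisense RNA to sense partner in each library, minus the mean of the 3 empty vector libraries of that pair, for the 21 pairs whose antisense RNA passed the test (blue, empty vector; orange, SLNCR; marker shape gives the replicate number). In 17 of the 19 pairs whose antisense RNA fell, all orange points lie left of all blue points, and the MIF and UCKL1 pairs are those that overlap; the pairs were picked by the change of the antisense RNA, which favours such a shift.

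Among partners of mitochondrial function, OXCT1 encodes the enzyme that activates ketone bodies and SLC25A5 the ADP/ATP carrier of the inner membrane. OXCT1-AS1 (chr5:41870030-41872241, plus strand) had 4.19, 6.50 and 3.28 CPM with the empty vector and 2.57, 2.98 and 2.45 CPM with SLNCR, the largest fall of those that passed (log2 fold change -0.79, SE 0.254, adjusted p = 0.0426 by edgeR). It was a faint RNA of 211 counts in all, and without empty vector replicate 2 the value was -0.49. OXCT1 had 40.3 ± 4.87 and 40.6 ± 4.63 CPM (SD, n = 3). SLC25A5-AS1 (chrX:119466034-119469098, minus strand) was far more abundant, at 109.6, 88.9 and 91.4 CPM against 75, 73.2 and 52.0 CPM (log2 fold change -0.53, SE 0.135, adjusted p = 0.0315 by edgeR). SLC25A5 had 652 ± 25.7 and 627 ± 19.3 CPM (SD, n = 3) and a log2 fold change of -0.06.

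Partners that act in transcription or in the nucleus were TSC22D1, CEBPB, ZNF213, IPO9 and MCM3AP. TSC22D1-AS1 (chr13:44575893-44580432, plus strand) had 9.08, 10.0 and 8.32 CPM with the empty vector and 5.80, 6.05 and 4.90 CPM with SLNCR. The groups stood well apart (log2 fold change -0.70, SE 0.154, adjusted p = 0.0139 by edgeR), while TSC22D1, a leucine zipper regulator, had a log2 fold change of 0.14 that missed the threshold. CEBPB-AS1 (chr20:50184598-50191498, minus strand), beside the gene of the transcription factor C/EBP beta, had 57.9, 49.7 and 43.8 CPM against 36.6, 39.2 and 24.4 CPM (log2 fold change -0.59, edgeR adjusted p = 0.0417). CEBPB had 81.3 ± 7.69 and 61.9 ± 12.6 CPM (SD, n = 3), also without overlap, and missed the threshold (adjusted p = 0.0730, edgeR).

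ZNF213-AS1 (chr16:3110460-3134882, minus strand) fell from 5.97 ± 0.688 to 3.87 ± 0.501 CPM (SD, n = 3; log2 fold change -0.63, edgeR adjusted p = 0.0327). It overlaps ZNF213, a zinc finger gene, outside exons only, but shares exon bases with another counted gene, ZNF205. IPO9-AS1 (chr1:201688259-201829559, minus strand), opposite a nuclear import receptor gene, fell from 11.8 ± 2.31 to 7.90 ± 1.11 CPM (SD, n = 3; log2 fold change -0.60, edgeR adjusted p = 0.0221), and IPO9 had a log2 fold change of 0.01. MCM3AP-AS1 (chr21:46229217-46259390, plus strand), opposite a gene of mRNA export, fell from 15.5 ± 1.17 to 11.5 ± 0.606 CPM (SD, n = 3; log2 fold change -0.42, edgeR adjusted p = 0.0238). The ratios to MCM3AP were among the tightest, between -2.83 and -2.79 with the empty vector and between -3.20 and -3.05 with SLNCR.

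Partners of glycan synthesis and membrane traffic were NDST1, B4GALT1 and RAB11B. NDST1 modifies heparan sulfate, B4GALT1 adds galactose to glycans in the Golgi, and RAB11B is a small GTPase of recycling endosomes. NDST1-AS1 (chr5:150475531-150485968, minus strand) fell from 7.84 ± 1.47 to 5.11 ± 0.0931 CPM (SD, n = 3; log2 fold change -0.62, edgeR adjusted p = 0.0254). B4GALT1-AS1 (chr9:33166975-33179983, plus strand) had 16.6, 13.2 and 11.5 CPM against 10.5, 11.0 and 9.35 CPM (log2 fold change -0.43, edgeR adjusted p = 0.0490). Its groups nearly touched, and without empty vector replicate 1 the value was -0.26. RAB11B-AS1 (chr19:8374373-8390685, minus strand) fell from 18.0 ± 1.25 to 11.9 ± 2.58 CPM (SD, n = 3; log2 fold change -0.58, edgeR adjusted p = 0.0159), beside -0.22 for RAB11B (adjusted p = 0.0614, edgeR).

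Partners of the cytoskeleton and of signalling were AFAP1, DNMBP and RUSC1, which encode an actin filament binding protein, a CDC42 exchange factor and an adaptor protein. AFAP1-AS1 (chr4:7754090-7778928, plus strand) was steady within groups, at 17.2, 16.6 and 16.9 CPM against 13.6, 12.7 and 12.9 CPM (log2 fold change -0.37, SE 0.106, adjusted p = 0.0283 by edgeR). DNMBP-AS1 (chr10:99927010-99958381, plus strand) was measured at 31.9, 28.7 and 29.1 CPM against 23.9, 23.7 and 23.4 CPM (log2 fold change -0.34, SE 0.0873, adjusted p = 0.0195 by edgeR). DNMBP had a log2 fold change of -0.02. RUSC1-AS1 (chr1:155316863-155324176, minus strand) had 37.8, 33.4 and 31.4 CPM against 25.7, 27.2 and 21.5 CPM (log2 fold change -0.46, SE 0.101, adjusted p = 0.0139 by edgeR), and RUSC1 0.08. LIX1L-AS1 (chr1:145926590-145959179, plus strand), whose exons overlap those of LIX1L and of the exon junction gene RBM8A, had 10.7, 8.15 and 9.19 CPM against 6.27, 7.40 and 3.45 CPM (log2 fold change -0.69, edgeR adjusted p = 0.0327). Its value was -0.45 without SLNCR replicate 3, and it no longer passed.

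In 2 of these pairs the start sites lie so close that 1 promoter window holds most of both, and the windows are printed because the antisense RNA fell there and the partner did not pass. The starts of SLC25A5-AS1 and SLC25A5 are 182 bases apart, and those of RUSC1-AS1 and RUSC1 are 92 bases apart. The windows of both partners share 281 and 191 of their 300 bases. For contrast the separate windows of HIF1A-AS1 and HIF1A are given, whose starts are 310 bases apart and whose RNAs moved in opposite directions. The sequences are RefSeq windows of GRCh38.p14 from 250 bases before to 50 bases after the start, 5′ to 3′ on the strand of the named gene, at chrX:119468194-119468493 (plus), chr1:155323687-155323986 (plus), chr14:61695774-61696073 (minus) and chr14:61695263-61695562 (plus). They were chosen after the values were seen, and capitals mark the GC box letters GGGCGG or CCGCCC and the TATA box letters TATAAA or TTTATA, adjoining or overlapping matches as 1 run.
SLC25A5: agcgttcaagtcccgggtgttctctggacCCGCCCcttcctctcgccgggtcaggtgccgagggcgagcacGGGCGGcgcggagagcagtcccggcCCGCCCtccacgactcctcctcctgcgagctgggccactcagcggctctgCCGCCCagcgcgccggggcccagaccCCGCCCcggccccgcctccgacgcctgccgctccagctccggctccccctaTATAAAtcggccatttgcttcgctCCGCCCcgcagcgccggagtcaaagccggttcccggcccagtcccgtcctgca
RUSC1: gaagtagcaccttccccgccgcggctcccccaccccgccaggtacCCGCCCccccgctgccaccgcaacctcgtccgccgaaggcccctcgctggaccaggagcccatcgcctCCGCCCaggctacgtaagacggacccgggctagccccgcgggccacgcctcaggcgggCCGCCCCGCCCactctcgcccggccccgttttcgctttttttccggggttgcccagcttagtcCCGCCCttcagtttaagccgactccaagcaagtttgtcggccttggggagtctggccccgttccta
HIF1A-AS1: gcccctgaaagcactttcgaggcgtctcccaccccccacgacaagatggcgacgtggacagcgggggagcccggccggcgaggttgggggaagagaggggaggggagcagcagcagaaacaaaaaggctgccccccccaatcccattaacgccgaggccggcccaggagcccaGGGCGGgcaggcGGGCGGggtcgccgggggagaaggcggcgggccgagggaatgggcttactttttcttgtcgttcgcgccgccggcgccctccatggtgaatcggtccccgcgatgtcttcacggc
HIF1A: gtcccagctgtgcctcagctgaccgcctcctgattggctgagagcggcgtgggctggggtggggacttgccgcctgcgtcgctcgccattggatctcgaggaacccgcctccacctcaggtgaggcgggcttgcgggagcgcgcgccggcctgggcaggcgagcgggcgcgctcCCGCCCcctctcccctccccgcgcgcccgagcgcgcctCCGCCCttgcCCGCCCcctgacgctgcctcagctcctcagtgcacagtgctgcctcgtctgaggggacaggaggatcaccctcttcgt
The SLC25A5 window, which is that of the antisense RNA for 281 bases, held 6 GC boxes and 1 TATA box, and the RUSC1 window 5 GC boxes. The HIF1A-AS1 and HIF1A windows held 2 and 3 GC boxes. GC box letters stood on either strand in 45.0% of all 35116 windows and in 48.5% of the 262 windows of these antisense RNAs that were matched. TATA box letters stood in 11.5% and 7.63%. The E2F letters TTTGGCGC and TTTCCCGC, the NRF1 motif and the ETS letters CCGGAAG, searched on both strands, were in none of these 4 windows. They were found in 0.652%, 1.63%, 1.239% and 10.3% of all windows and in 0.382%, 1.91%, 2.67% and 9.92% of the antisense windows. A match describes the letters and is not a bound site.

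Over the 335 pairs with both sides tested, the antisense RNA and its partner had the same sign in 212 (63.3%). The Pearson correlation of their log2 fold changes was 0.31 and the Spearman rho was 0.31. The partners share libraries, and the GC content of their transcripts had a Pearson correlation of 0.63 over the pairs, so these values describe the pairs and carry no test. Of the 333 partner genes tested, 40 rose and 28 fell (20.4%), beside 8.84% higher and 7.67% lower (16.5%) over all tested genes. The antisense median was -0.03 for the 39 pairs whose partner rose and -0.26 for the 29 pairs whose partner fell. Of the antisense RNAs, 18 of the 39 and 25 of the 29 had the sign of the partner. Antisense RNA and partner both passed in 7 pairs, of which 5 agreed in direction.

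**Figure D4:**
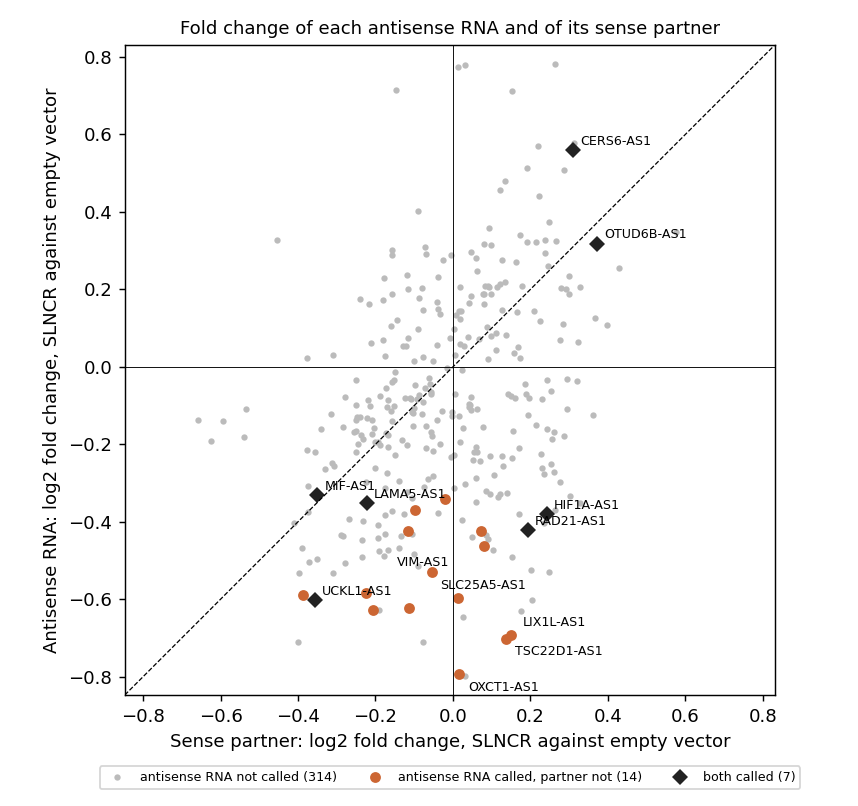
Log2 fold change after SLNCR of 335 antisense RNAs (vertical axis) against that of their sense partners (horizontal axis); grey, antisense RNA did not pass the test; orange, it passed and the partner did not; black diamonds, both passed; the dashed line marks equal change. The 14 orange points all lie below 0, and HIF1A-AS1 and RAD21-AS1 are the diamonds at lower right with a partner that rose.

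The change of a gene in these libraries went with its GC content. Over all tested genes the Pearson correlation of GC content with log2 fold change was -0.64, and over the antisense RNAs it was -0.38. Their median GC content was 48.4%, near the 47.9% of all genes. With the genes in 5 equal classes of GC content, in the lowest class the median log2 fold change was 0.07 for the antisense RNAs and 0.21 for all genes, and in the highest -0.25 and -0.23. The antisense median was the lower of both in each class. Both antisense RNAs that rose had low GC content, 39.9% for CERS6-AS1 and 37.0% for OTUD6B-AS1, while the 19 that fell ranged from 43.9% to 65.5%.

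**Figure D5:**
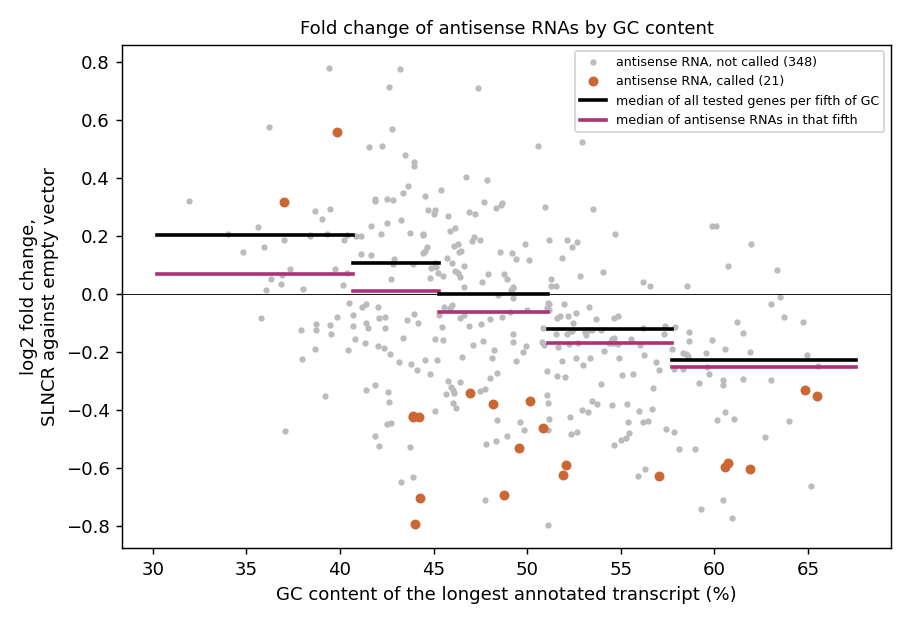
Log2 fold change of the 369 tested antisense RNAs (vertical axis) by GC content of the longest annotated transcript in percent (horizontal axis); orange points passed the test, and bars give the median of all tested genes (black) and of the antisense RNAs (purple) in each of 5 classes of the genes by GC content. Both bars step down from left to right, and the purple bar is below the black bar in each class.

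When a GC trend fitted within each library was removed, 0 antisense RNAs passed at an edgeR adjusted p of 0.05, as did 0.0156% of all genes. At an unadjusted p of 0.05 with the correction there were 50 (13.6%, 10 higher and 40 lower), not all of them among the 73 found without it, beside 15.1% of all genes. With the correction all 21 kept their sign, and their adjusted p ranged from 0.0573 to 0.785. LINC00673, the RNA supplied, also missed the threshold with the correction, at a log2 fold change of 3.38 (edgeR adjusted p = 0.0539). DESeq2 and limma-voom, run without the correction, called 1 and 2 higher and 9 and 16 lower. The fall of TSC22D1-AS1 was -0.77 after correction, that of OXCT1-AS1 -0.87 and that of MCM3AP-AS1 -0.50, all larger than before. MIF-AS1 and LAMA5-AS1, the GC-richest of those that fell, were at -0.06 and -0.07. OTUD6B-AS1 was at 0.10 and CERS6-AS1 at 0.39. Among the pairs, the correlation was 0.07 (rho 0.10) and the same sign was seen in 181 (54.0%). The median over the antisense RNAs was -0.07 and that over all genes 0.00, and 61.0% of the antisense RNAs against 49.5% of all genes were below 0.

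Level also differed between the antisense RNAs and other genes. Of those tested, 218 were in the lowest of 5 equal classes of all genes by mean CPM and 99 in the next. In the lowest class the median log2 fold change was -0.13 for the antisense RNAs and -0.09 for all genes, and in the next -0.12 and -0.04. With the GC correction these values were -0.08 and -0.03, then -0.08 and -0.01. In the lowest class 1.38% of the antisense RNAs and 1.68% of all genes fell by the edgeR test, and in the next 10.1% and 5.51%. The part that level has in the downward shift was not tested beyond these values.

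The arrangement of the pairs could be read from the annotation for 366 of the 374 antisense RNAs, and in all 366 the gene of that name was on the opposite strand. Exons overlapped in 294, 44 overlapped outside exons only, 26 were head to head and 2 lay further apart. The other 8 had no gene of that name, 7 of them in HOX clusters (such as HOXA-AS2 and HOXC-AS1) and the other RPARP-AS1. Where exons overlapped, 1 rose and 18 fell of 290 tested, with a median log2 fold change of -0.13. Head-to-head antisense RNAs had a median of 0.08 over 26, with 1 higher and 0 lower. Those overlapping outside exons only had a median of -0.08 over 43, with 0 higher and 1 lower. With the GC correction the medians were -0.08 where exons overlapped, 0.09 head to head and -0.10 for overlap outside exons only.

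Whether the reads were counted by strand is not given in the sources used here, so reads from exon stretches that both genes share may not be told apart. The falls were found where such stretches exist. Shared exon bases were looked for with other genes whose counts summed to at least 60. Of the 81 tested antisense RNAs with none, 1 rose and 0 fell at an edgeR adjusted p of 0.05, and the median was -0.00. At an unadjusted edgeR p of 0.05, 5 of them were higher and 6 lower. The 288 with shared exon bases had 1 rise, 19 falls and a median of -0.13 (16 higher and 46 lower unadjusted). With the GC correction the medians were -0.02 and -0.07. The RNAs without shared exons were also fainter, with a median of 2.50 against 5.63 CPM, and the difference between these groups was not tested. For the 19 that fell, the share of exon bases covered by the partner was 0 for ZNF213-AS1 and otherwise between 4.33% (UCKL1-AS1) and 46.5% (MIF-AS1).

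Within the pairs with overlapping exons, agreement in sign differed with the share of exon in common. The same sign was seen in 53.6% of 97 tested pairs where up to 10% of the antisense exon bases were covered by the partner, in 61.3% of 80 pairs for 10% to 25%, in 73.4% of 64 pairs for 25% to 50%, and in 75.8% of 33 pairs above 50%. Pairs with no exon base in common did not continue this order, with 65.2% of 23 head-to-head pairs and 62.2% of 37 pairs overlapping outside exons only. The Spearman rho of the levels per kilobase over the 4 classes of exon overlap was 0.28, 0.56, 0.49 and 0.58, without a steady order. These are descriptions over pairs that share libraries, and the part of reads counted for the other gene was not tested. The shares by class use fold changes without the GC correction. With it, the same sign was seen in 54.0% instead of 63.3% of all 335 pairs. The GC content of partners also went together (Pearson correlation 0.63), and its part in this order was not tested.

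Antisense RNAs with published roles in cancer cells were taken from a list of 45 names, of which 22 met the selection. Of the 22, 3 fell (AFAP1-AS1, MCM3AP-AS1 and DNMBP-AS1) and 0 rose by the edgeR test. The median log2 fold change of the 22 was -0.16. The share called in either direction was near the 16.5% of all tested genes. By direction, 8.84% of all tested genes rose and 7.67% fell, and 5.15% of the tested antisense RNAs fell. AFAP1-AS1 and MCM3AP-AS1 have been studied as promoters of growth or invasion in tumour cells. TMPO-AS1 had 56.8 ± 4.92 and 48.3 ± 6.75 CPM (SD, n = 3), with overlap between groups. OIP5-AS1, a conserved cytoplasmic RNA, had 33.4 ± 2.53 and 38.6 ± 2.38 CPM, also with overlap. Both missed the threshold (adjusted p = 0.0977, edgeR). SPRY4-AS1 had the largest value on the list, -0.80, but at 1.51 ± 0.350 and 0.875 ± 0.177 CPM (SD, n = 3) it did not pass (adjusted p = 0.121, edgeR). NNT-AS1, SBF2-AS1 and KTN1-AS1 had values of 0.02, 0.05 and -0.07, and none passed. KTN1-AS1 was imprecise, ranging from -0.45 to 0.28 with single libraries left out, and NNT-AS1 was at -0.19 with the GC correction.

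The nuclear RNA exosome degrades short-lived non-coding RNAs with the help of adaptors that bind the cap or the poly(A) tail. Of 23 tested genes of the exosome and its adaptors, 5 rose and 4 fell, beside 8.84% and 7.67% of all tested genes, and the median log2 fold change was 0.04. DIS3, a catalytic subunit, rose by 0.27 (edgeR adjusted p = 0.0174), while EXOSC10 and DIS3L, at 0.10 and 0.04, did not pass. The cofactors MPHOSPH6, RBM7, ZFC3H1 and the cap-binding NCBP1 rose by 0.39, 0.35, 0.25 and 0.21. The ring subunit EXOSC4 fell by 0.46 (adjusted p = 0.0159, edgeR), and the cap-binding partners SRRT and ZC3H18 fell by 0.34 and 0.25. PABPN1 fell too, but it overlaps another gene and had a mean of 1.28 CPM with the empty vector. Of 16 genes of decay from the 5′ end and of nonsense-mediated decay, UPF1 fell by 0.25 and 0 rose. Of 20 genes that edit, process or sense double-stranded RNA, DICER1 and EIF2AK2, the kinase PKR, rose by 0.22 and 0.25 and 0 fell. The calls on these last lists, 1 of 16 and 2 of 20, were no more frequent than the 16.5% over all genes. With the GC correction 0 of the genes on these lists passed. The exosome genes that rose, DIS3, MPHOSPH6, RBM7, ZFC3H1 and NCBP1, were then at 0.09, 0.20, 0.12, 0.09 and 0.08. EXOSC4, SRRT and ZC3H18 were at -0.30, -0.16 and -0.08, PABPN1 at -1.80, and the median of the exosome list was -0.04. GC content was 36.8% to 41.5% for those that rose, and 57.1%, 58.3% and 58.0% for EXOSC4, SRRT and ZC3H18. The part of GC content in these calls was not tested. MTREX, TENT4A and TENT4B of the exosome list and IFIH1 of the double-stranded RNA list were not found by name among the genes counted.

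Other non-coding genes named by position gave little to compare. Of 12 divergent transcripts (-DT) 2 could be tested, of 32 intronic transcripts (-IT) 9, and of 2 overlapping transcripts (-OT) and 5 antisense RNAs numbered -AS4 to -AS9, 0. By the edgeR test 0 of these passed. In 7 cases a sense gene had an -AS1 and an -AS2 above the limit. COL4A2-AS1 and COL4A2-AS2, opposite a collagen IV gene, had log2 fold changes of -0.38 and -0.31 beside -0.37 for COL4A2, and 0 of these 14 antisense RNAs passed.

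At the limit of 60 counts stood MID1IP1-AS1, NAGPA-AS1, NOP53-AS1, RNF157-AS1, SSSCA1-AS1 and SYNE1-AS1, each with a sum of exactly 60. Just below were LAMC1-AS1 with 59, GPRC5D-AS1 with 58, and POC1B-AS1 and PRKG1-AS1 with 57 each. NAGPA-AS1 had 19, 9 and 12 counts with the empty vector and 8, 9 and 3 with SLNCR, and GPRC5D-AS1 had 4, 7 and 5 against 13, 18 and 11. Counts of this size leave a difference between groups imprecise.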

How the data were processed

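The 6 libraries, 3 per group, were compared from the authors' deposited table of raw read counts per gene. The submitters' processing notes name build GRCh38 and the tools STAR, cutadapt and DESeq2 1.24.07, without their roles. Not given in the sources used here are the read counter, annotation and strand setting. Of 20238 rows, 1857 that name no gene (2.15% to 2.59% of counts) stayed out, and 63 rows of 22 runs of neighbouring identical counts were removed, which left 18318 genes. GENCODE release 29 matched 18369 of 18379 identifiers and gave symbols, strands, exons and GC content. Library totals were 9287450 to 10822083 counts.

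The test was edgeR 4.0.16 in R 4.3.3: TMM factors, default filterByExpr filter, robust quasi-likelihood F-test, two-sided, Benjamini-Hochberg over 12797 genes, threshold 0.05. The biological coefficient of variation was 5.65%. CPM are TMM-scaled, and ratios use log2 CPM with a prior count of 2. The permutation test of ratios is left out, since the pairs shown were chosen by the change of the antisense RNA. The GC correction is an offset per library from a loess curve (span 0.5, degree 2) of deviations in log2 CPM against GC content. Other settings were DESeq2 1.42.0, limma-voom (limma 3.58.1), other factors, filters and thresholds, the replicate number as a block, and leaving out each library. The fit was tried on simulated counts with the same spread for every gene and known changes in better-counted genes only. Changes in the faintest antisense RNAs were thus not covered by it. Replicates differed by more than sampling noise (chi-square per degree of freedom 1.79 to 6.97).

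Antisense RNAs named were the 12 largest rises and falls that passed, the 10 most abundant (some of which are not reported here), those next to the count limit, those opposed to their partner, and a list with published roles. The antisense RNAs and the lists were chosen with earlier results of these data known. Promoter windows were RefSeq GRCh38.p14, matched for 262 of the antisense RNAs.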

Additional observations from a re-analysis of the deposited data

How the results depend on the processing

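The direction of all 21 antisense RNAs that passed was the same under every other setting. It was also the same with each library left out, which the lack of overlap between their groups largely fixes. How many passed was not the same: in 16 alternatives each, single antisense RNAs passed in 5 (HIF1A-AS1) to 12. Counts are given as higher and lower, antisense RNAs first and sense partners after them, beside 2 and 19, and 40 and 28. With the GC correction they were 0 and 0, and 0 and 0, and the median log2 fold change was -0.0710 instead of -0.115. The replicate block, in which the number stands as a term, gave 6 and 34, and 58 and 48, and the block with the GC correction 1 and 12, and 4 and 5, with a median of -0.0699. Correlations of deviations were 0.159, -0.0189 and 0.370 for same-numbered libraries over 9896 genes. For differently numbered libraries they ran from -0.381 to 0.348, so these values do not settle whether the numbers pair the libraries. No filter gave 4 higher, DESeq2 1 and 9 with 18 partners lower, a threshold of 0.01 gave 0 in all 4 counts, and a threshold of 0.1 gave 7 and 40 with 52 partners lower. Leaving out each library in turn gave 0 to 5 higher and 0 to 34 lower, and 0 to 54 and 0 to 44 for the partners. With the GC correction as well, a choice made after seeing the data, this gave 0 to 3 and 0 to 11, and 0 to 10 and 0 to 12, and medians of -0.0852 to -0.0579 (-0.0716 without empty vector replicate 1, -0.0647 without SLNCR replicate 3). Of antisense RNAs sharing no exon with a gene of at least 60 counts, also chosen after seeing the data, 1 rose and 0 fell. Their median was -0.0028 and 34 pairs had the same sign, with fewer genes in the count. The stricter filter kept the same 12797 genes. Apart from the GC and overlap settings, whose construction is given, the cause of these moves was not tested.

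Some antisense RNAs that did not pass changed sign. With the GC correction, alone and then with the block, FOXC2-AS1 was at 0.0482 and 0.0295, FOXD2-AS1 at 0.0210 and 0.0155, NNT-AS1 at -0.185 and -0.186 and SBF2-AS1 at -0.0526 and -0.0550. With each library left out in turn, FOXC2-AS1 ranged from -0.282 to 0.185, KTN1-AS1 from -0.452 to 0.281, GAS6-AS1 from -0.517 to 0.0384, SLC16A1-AS1 from -0.377 to 0.0170, CD27-AS1 from -0.322 to 0.0052 and NNT-AS1 from -0.0924 to 0.0779. The cause was not tested. Antisense RNAs near the limit of 60 counts have about 10 counts a library, so small differences there were not detectable.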
